A study of Mus musculus with 10 samples.

Results

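The messenger RNAs described here encode 9 apolipoproteins made by hepatocytes (Apoa1, Apoa2, Apoa4, Apoa5, Apob, Apoc3, Apof, Apoh and Apom) and Mttp, the microsomal triglyceride transfer protein that loads lipid onto apolipoprotein B. Members were all probe sets annotated with exactly 1 gene symbol equal to one of these names, whatever their level. This gave 18 probe sets for the 10 genes, out of 45037 probe sets on the array without its controls and 18193 named genes. By its strongest probe set, each of the 10 genes read 10.63 log2 or more on every array.

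Liver RNA was measured on one-colour arrays with 1 array per animal in 10 female mice aged 3 months on a C57BL/6 background. In 5 mice (APOE4) human APOE4 stood in place of the mouse Apoe gene on both chromosomes (B6.129P2-Apoetm3(APOE*4)Mae N8), and in the other 5 (APOE3) human APOE3 did so (B6.129P2-Apoetm2(APOE*3)Mae N8). Both genotypes therefore lack mouse Apoe, make a human isoform under the mouse Apoe promoter, and ate the same cholesterol-supplemented (2 g/kg) diet with milk fat as 41% of its energy. The time on this diet is given as 6 weeks in one label and 2 months in another. No wild-type, chow-fed or human APOE2 animals are among the groups, so values compare the isoforms with each other and not with the normal mouse gene. Each array holds the liver extract of 1 animal, and the labels give no batch.

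Very low density lipoprotein (VLDL) is assembled in the endoplasmic reticulum of the hepatocyte, where Mttp, in a complex with the disulfide isomerase P4hb, transfers lipid to the growing apolipoprotein B chain. Apolipoprotein C3 and apolipoprotein A5 then tune how fast the triglyceride in these particles is removed, C3 as an inhibitor and A5 as a promoter of lipoprotein lipase action. Apolipoproteins A1 and A2 are abundant proteins of high density lipoprotein (HDL), and apolipoprotein E itself is the ligand by which remnant particles are taken up.

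For mouse Apoe, the replaced gene, the array gave a background level of 1.00 to 1.19 log2 in APOE4 and 0.96 to 1.12 log2 in APOE3 livers, which does not check one isoform against the other. For liver identity, 6 of 8 hepatocyte markers could be read, all at a mean over 13 log2. Their summed level was 16.58 to 16.64 log2 in APOE4 and 16.50 to 16.67 log2 in APOE3 livers. Array medians over all probe sets but the controls ran from 2.61 to 2.67 log2. They differed by genotype, with a mean of 2.62 ± 0.0091 in APOE4 and 2.65 ± 0.014 in APOE3 (SD, n = 5 each, two-sided exact permutation p = 0.0079, the smallest that 5 against 5 allows). Since whole liver was used, fewer cells of a type and less RNA per cell cannot be told apart.

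The question addressed was whether the transcripts of this lipoprotein pathway differ between APOE4 and APOE3 livers. No member passed the test. Of the 16 member probe sets with a mean of at least 4 log2, 0 passed an adjusted p of 0.05 in limma, against 0.0815% of the 14732 probe sets tested. An unadjusted p under 0.05 was reached by 0 of the 16 in this fit, against 8.00% of all tested probe sets. In 0 of the 16 did the 5 APOE4 animals lie wholly on one side of the 5 APOE3 animals, against 2.02% of all. The difference was positive in 12 of the 16, against 60.9% of all. By the strongest probe set of each gene, 7 genes were positive and 3 negative, with a median log2 difference, APOE4 minus APOE3, of 0.037 beside 0.047 for all tested probe sets. The 10 differences ran from -0.14 for Apoa5 to 0.12 for Apom. Their 95% intervals reached at most 0.757-fold on the low side (Apoa4) and 1.32-fold on the high side (Apom), as folds of the array values. These intervals borrow variance from all tested probe sets alike, whatever their level. In a robust limma fit whose borrowed variance follows the level, the SE was 0.042 for Apoa2 and 0.045 for Apoc3. In the main fit these were 0.076 and 0.078. The unadjusted p of that other fit is not given.

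**Figure D1:**
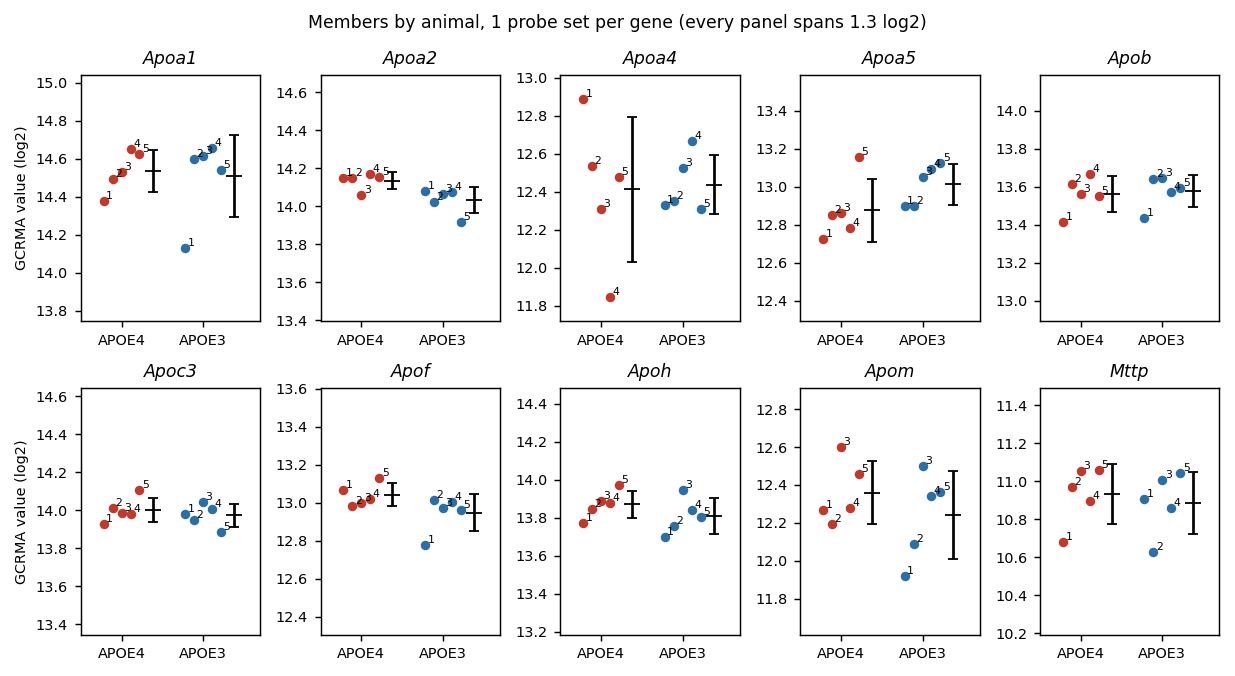
GCRMA values (log2) of each animal for the strongest probe set of each of the 10 genes, APOE4 left and APOE3 right, with the replicate number beside each point and the mean ± SD as a bar. The groups overlap in every panel, and Apoa4 has the widest spread, from 11.85 to 12.89 log2 within APOE4.

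Apob, the structural protein of VLDL, had 13.41, 13.62, 13.56, 13.67 and 13.55 log2 in APOE4 livers, against 13.43, 13.64, 13.65, 13.57 and 13.59 log2 in APOE3 livers (probe set 1455593_at, replicates 1 to 5). Replicate 1 was the lowest of its genotype in both groups, and the groups overlapped. The difference was -0.02 (SE 0.085, 95% interval -0.20 to 0.17, adjusted p = 0.97 in limma). A further Apob probe set, 1457554_at, lay near background at 3.63 to 3.98 log2 in APOE4 and 3.75 to 3.94 log2 in APOE3 livers and was not tested.

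Mttp had 10.68, 10.97, 11.06, 10.89 and 11.06 log2 in APOE4 livers, against 10.91, 10.63, 11.01, 10.86 and 11.04 log2 in APOE3 livers by its stronger probe set, 1419400_at. The highest values of the genotypes were nearly equal, and the low animals were APOE4 replicate 1 and APOE3 replicate 2. The difference was 0.04 (SE 0.11, 95% interval -0.20 to 0.29, adjusted p = 0.94 in limma). The weaker probe set, 1419399_at, had 9.20, 9.19, 9.39, 9.23 and 9.70 log2 in APOE4 livers, against 8.85, 8.50, 9.45, 9.33 and 8.94 log2 in APOE3 livers. Here 3 APOE3 animals were below all APOE4 animals, while APOE3 replicates 3 and 4 lay among them. At 0.33 (SE 0.18, 95% interval -0.07 to 0.73) it was the largest difference of any member probe set, with an unadjusted p = 0.095 and an adjusted p = 0.68 in limma. It was 0.20 without APOE3 replicate 2, and 0.20 to 0.44 with each animal left out in turn. The deviations of the animals from their genotype means correlated between the probe sets of Mttp with r = 0.62 (rho = 0.59, exact permutation p = 0.074 and 0.11, n = 10), and with r = 0.27 without APOE3 replicate 2 and APOE4 replicate 1, so the relation rests on those animals.

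Apoa5 and Apoc3, whose proteins act in opposite directions on triglyceride removal, had 1 probe set each. Apoa5 had 12.72, 12.85, 12.86, 12.78 and 13.16 log2 in APOE4 livers, against 12.90, 12.90, 13.05, 13.09 and 13.12 log2 in APOE3 livers. All APOE4 animals except replicate 5 were below every APOE3 animal, and replicate 5 was above them all. The difference was -0.14 (SE 0.10, 95% interval -0.36 to 0.09, adjusted p = 0.75 in limma), and with each animal left out in turn it ran from -0.21 to -0.10. Apoc3 spanned 13.93 to 14.10 log2 in APOE4 and 13.88 to 14.04 log2 in APOE3 livers, a narrow range that overlapped between genotypes, with a difference of 0.03 (SE 0.078, 95% interval -0.14 to 0.20).

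Upstream sequence was available in the RefSeq promoter table of build GRCm38.p6 for 8 of the 10 genes, as 10 annotated starts. The 250 bases before each start were searched on both strands for TATAAA (the TATA box), CAAAGTC (the core of the HNF4 site) and TGTTTAC (the core of forkhead factor sites). None of these motifs contains another. TATAAA was found in 4 of these 10 windows, from Apoa2, Apoa5 and Apob, against 12.4% of all 32851 promoters in the table. TGTTTAC was found in 2 of the 10, from Apoa2 and Apoh, against 3.17%. The windows of Apoa5 overlap and hold the same TATA box. CAAAGTC was found in 0 of the 10, against 3.84%, which says only that these letters are not in these windows. Members with a match are given by the 120 bases before 1 of their starts, 5′ to 3′ on the gene's strand. Matched letters are in capitals: the TATA box in Apoa5 and Apob, the regulator of triglyceride removal and the structural protein of VLDL, and the forkhead core in Apoa2 and Apoh.
Apoa5, chr9:46268488-46268607, plus strand: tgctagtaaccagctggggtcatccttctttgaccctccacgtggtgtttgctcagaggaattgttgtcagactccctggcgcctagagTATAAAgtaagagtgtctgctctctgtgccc
Apob, chr12:7977557-7977676, plus strand: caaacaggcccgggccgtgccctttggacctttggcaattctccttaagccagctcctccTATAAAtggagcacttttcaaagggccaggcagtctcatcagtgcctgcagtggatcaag
Apoa2, chr1:171224934-171225053, plus strand: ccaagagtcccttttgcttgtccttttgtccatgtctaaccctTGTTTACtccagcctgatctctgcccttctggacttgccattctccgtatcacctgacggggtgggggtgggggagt
Apoh, chr11:108395177-108395296, plus strand: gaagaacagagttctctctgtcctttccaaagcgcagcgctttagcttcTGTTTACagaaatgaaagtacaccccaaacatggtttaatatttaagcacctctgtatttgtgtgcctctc
The TATA box lay 31 to 26 bases before this start of Apoa5 and 60 to 55 bases before that of Apob. The forkhead core lay 77 to 71 bases before this start of Apoa2, whose TATAAA is farther upstream, and 71 to 65 bases before that of Apoh.

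Apoa1, the main protein of HDL, had 14.38, 14.49, 14.53, 14.65 and 14.63 log2 in APOE4 livers, against 14.13, 14.60, 14.61, 14.66 and 14.54 log2 in APOE3 livers by probe set 1419232_a_at. APOE3 replicate 1 stood below all other animals, and the remaining APOE3 values lay within the APOE4 range or at its top. The difference was 0.03 (SE 0.12, 95% interval -0.23 to 0.28, adjusted p = 0.96 in limma), and -0.07 (SE 0.090, adjusted p = 0.81) without APOE3 replicate 1. The other 3 probe sets of Apoa1 differed by 0.01 to 0.03, and the 4 ranked the animals almost alike: their deviations correlated with r from 0.94 to 0.99 (rho from 0.92 to 0.96, adjusted exact permutation p at most 0.0021 over 9 pairs of probe sets, n = 10). Without APOE3 replicate 1 and APOE4 replicate 1, r was 0.85 to 0.97. The names of those 3 end in _x_at, which marks probes that may also match other transcripts, and they read the same RNA on the same array.

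Apoa2, another abundant HDL protein, had the tightest values of the 10 genes, with 14.15, 14.15, 14.06, 14.17 and 14.15 log2 in APOE4 livers, against 14.08, 14.03, 14.06, 14.07 and 13.92 log2 in APOE3 livers. APOE4 animals other than replicate 3 were above every APOE3 animal, the nearest of them at 14.08. The difference was 0.10 (SE 0.076, 95% interval -0.06 to 0.27, unadjusted p = 0.20, adjusted p = 0.74 in limma). It stayed positive, at 0.08 to 0.12, with each animal left out in turn. The difference was 0.05 with arrays centred on the median of their tested probe sets. The SD within genotypes was 0.056, lower than in all but 0.502% of tested probe sets.

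Apom, which carries sphingosine 1-phosphate on HDL, had 12.27, 12.19, 12.60, 12.28 and 12.46 log2 in APOE4 livers, against 11.92, 12.09, 12.50, 12.34 and 12.36 log2 in APOE3 livers by probe set 1419095_a_at. Replicate 3 was the highest of both genotypes, and the 2 lowest animals were APOE3 replicates 1 and 2. The difference was 0.12 (SE 0.13, 95% interval -0.17 to 0.40, adjusted p = 0.84 in limma), and 0.04 without APOE3 replicate 1. The second probe set, 1419096_at, gave 0.04 (SE 0.13), and both ordered the animals alike (r = 0.94, rho = 0.88, adjusted exact permutation p = 0.0020 and 0.0068, n = 10; r = 0.93 without APOE3 replicate 1 and APOE4 replicate 3).

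Apof, a lipoprotein-bound protein known in humans as an inhibitor of lipid transfer between particles, spanned 12.98 to 13.13 log2 in APOE4 and 12.78 to 13.02 log2 in APOE3 livers. The low end of APOE3 was again replicate 1, and the other APOE3 animals lay between 12.96 and 13.02. The difference was 0.09 (SE 0.082, 95% interval -0.09 to 0.28, adjusted p = 0.79 in limma), and 0.05 without APOE3 replicate 1. Apoh, which binds anionic phospholipids, spanned 13.77 to 13.97 log2 in APOE4 and 13.70 to 13.95 log2 in APOE3 livers by 1416677_at, with a difference of 0.06 (SE 0.083, 95% interval -0.12 to 0.24). A second Apoh probe set, 1447719_at, read 2.98 to 3.52 log2 in APOE4 and 3.22 to 3.63 log2 in APOE3 livers, under the level at which differences have a sure scale. In the limma fit without a filter it was at -0.28 (unadjusted p = 0.044, adjusted p = 0.60), opposite in sign to the strong probe set.

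**Figure D2:**
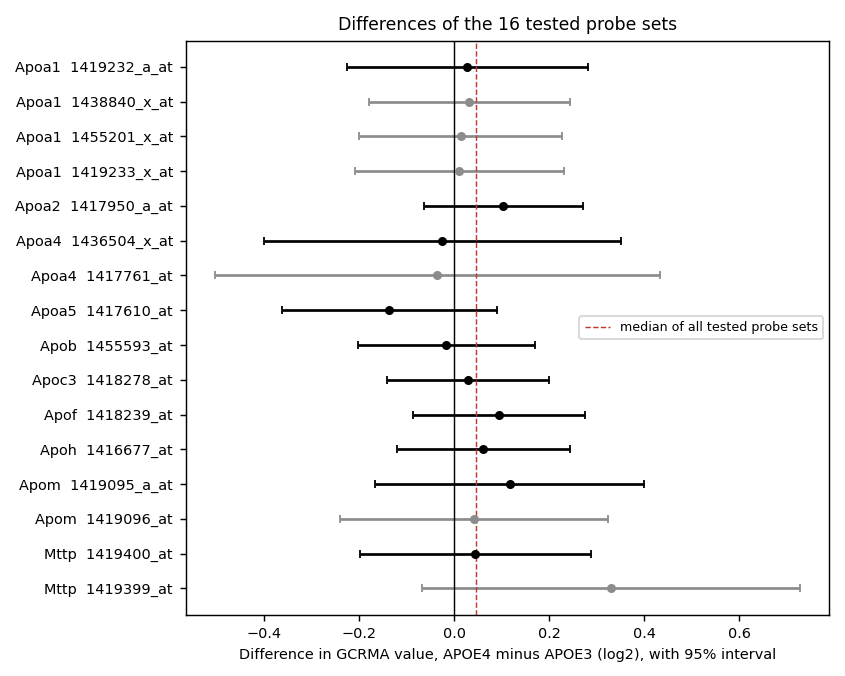
Log2 difference in GCRMA value, APOE4 minus APOE3, of the 16 tested probe sets with 95% intervals from limma, black for the strongest probe set of a gene and grey for the others, with the dashed line at the median of all tested probe sets (0.047). Every interval includes 0, and the difference farthest from 0 is 0.33 for Mttp 1419399_at.

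Apoa4, which in the mouse is made by liver as well as intestine, varied most between animals. By probe set 1436504_x_at it had 12.89, 12.54, 12.31, 11.85 and 12.48 log2 in APOE4 livers, against 12.33, 12.35, 12.53, 12.67 and 12.31 log2 in APOE3 livers. By 1417761_at it had 12.31, 11.61, 11.44, 10.95 and 11.68 log2 in APOE4 livers, against 11.45, 11.54, 11.73, 11.95 and 11.50 log2 in APOE3 livers. APOE4 held both the highest animal (replicate 1) and the lowest (replicate 4), so all APOE3 values fell inside the APOE4 range. The range was 1.04 and 1.36 log2 in APOE4, against 0.36 and 0.50 log2 in APOE3, by these probe sets. Both agreed on the animals (r = 0.98, rho = 0.93, adjusted exact permutation p = 0.00083 and 0.0021, n = 10), also without APOE4 replicates 1 and 4 (r = 0.96). The stronger probe set, 1436504_x_at, is also of the _x_at kind, whose probes may match other transcripts, and 1417761_at is not. The means hardly differed, at -0.03 (SE 0.17, 95% interval -0.40 to 0.35) and -0.04 (SE 0.21, 95% interval -0.50 to 0.43), each with an adjusted p of 0.98 in limma. Without APOE4 replicate 4 the differences were 0.12 and 0.13, with adjusted p of 0.86 and 0.90. The difference in spread between genotypes was not tested. Because intestine is the other source of Apoa4, markers of enterocytes were read: of 7 on the array, 5 were under 4 log2 on all 10 arrays and Cdx2 on 9. Fabp2 was the exception, at 11.45 to 12.42 log2 in APOE4 and 11.69 to 12.40 log2 in APOE3 livers. The summed level of these markers was 11.46 to 12.43 log2 in APOE4 and 11.71 to 12.41 log2 in APOE3 livers, which is nearly that of Fabp2 alone.

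Some of these values lie at the top of the array's range, where signal can be compressed. The highest value of an array was between 14.59 and 14.78 log2. Apoa1 by 1419232_a_at ranked between 1 and 9 from the top on every array, Apoa2 between 8 and 18, Apoc3 between 12 and 22, Apoh between 22 and 35 and Apob between 42 and 61, out of 45037. Apoa5, Apof, Apom, Apoa4 and Mttp were further down, 1.46 log2 or more under the top. In all, 138 tested probe sets had a mean of at least 13 log2, and 8 of them belong to 5 members. Over those 138 the median SD within genotypes was 0.090 and the median absolute difference 0.052, against 0.27 and 0.14 for the 5084 probe sets with means from 4 to 6, and 0 of the 138 passed the threshold. The median SD of the strongest probe sets of the members was 0.12, against 0.23 for all tested probe sets. Apoa1 by 1419232_a_at varied more than that, with an SD within genotypes of 0.17. How far the narrow spread of Apoa2, Apoc3, Apoh and Apob, at 0.056 to 0.090, comes from the top of the range was not tested. All these intervals are intervals of array values.

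**Figure D3:**
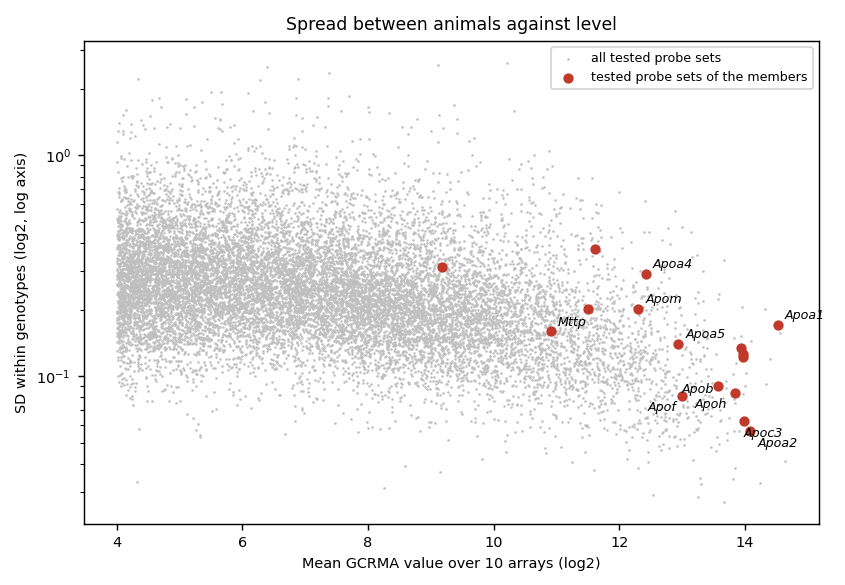
SD within genotypes (log2, log axis) against the mean GCRMA value over 10 arrays (log2) for all 14732 tested probe sets in grey and the 16 of the members in red, named at the strongest probe set of each gene. Spread narrows towards high levels, and Apoa4, Apom and Apoa1 are among the members that lie above most probe sets of their level.

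Animals differed from each other across several members at once. In APOE4, replicate 1 was the lowest of its genotype for 6 of the 10 genes and the highest for Apoa4, and replicate 5 was the highest for 5 and above the genotype mean for 9. In APOE3, replicate 1 was the lowest for 5 genes, and replicate 3 was above the genotype mean for 10 of 10. The median deviation over the 10 genes was -0.09 in APOE4 replicate 1 and -0.11 in APOE3 replicate 1, against -0.01 and 0.01 over all tested probe sets of those arrays. APOE3 replicate 1 also had the lowest summed hepatocyte markers, 16.50 log2 against 16.55 to 16.67 log2 in the other APOE3 livers, while APOE4 replicate 1 was at 16.60 log2 against 16.58 to 16.64 log2. Without APOE4 replicate 1 the median difference over the 10 genes was 0.077, and without APOE3 replicate 1 it was 0.033, beside 0.037 with all animals.

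APOE4 replicate 1 was also the highest of its genotype in summed markers of 4 other cell types, and the lowest in those of sinusoidal endothelial cells. The sinusoidal endothelial markers (6 of 6 on the array) summed to 11.14 log2 in it. The other APOE4 livers were at 11.19 to 11.71 log2 and APOE3 livers at 11.15 to 11.44 log2. Stab2, Fcgr2b and Pecam1 of this list were not lowest in APOE4 replicate 1. Kupffer cell and macrophage markers (8 of 8 on the array) summed to 13.22 log2 in this animal, against 12.44 to 13.02 log2 in the other APOE4 livers and 12.60 to 13.74 log2 in APOE3. Clec4f and Marco of this list were not highest in this animal. Stellate cell and fibroblast markers (6 of 6) summed to 12.13 log2, against 11.42 to 11.87 log2 in the other APOE4 livers and 11.53 to 11.85 log2 in APOE3, with Col3a1 alone at 10.46 log2. Reln, of the same list, went the other way, at 8.72 log2 in this animal. It was at 9.07 to 9.52 log2 in the other APOE4 livers and 8.85 to 9.44 log2 in APOE3. Lrat was at 8.44 log2 in this animal, below APOE4 replicates 4 and 5 at 8.73 and 8.85 log2. Lymphocyte markers (4 of 5) summed to 8.23 log2, against 6.95 to 7.95 log2 in the other APOE4 livers and 6.98 to 9.06 log2 in APOE3. Cd3e, Cd79a and Nkg7 were under 4 log2 on all arrays. The sum is therefore nearly that of Ptprc alone, at 8.15 log2 in this animal, and is no separate measure of lymphocytes. Adipocyte markers (3 of 5) summed to 4.75 log2, against 3.47 to 4.23 log2 in the other APOE4 livers and 3.36 to 5.64 log2 in APOE3. Adipoq and Lep were under 4 log2 on all arrays and Cidec on 9. In this animal Adipoq was at 3.60 and Cidec at 3.59 log2, so its sum rests on values near background. The part of these cell types in the members' values was not tested.

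**Figure D4:**
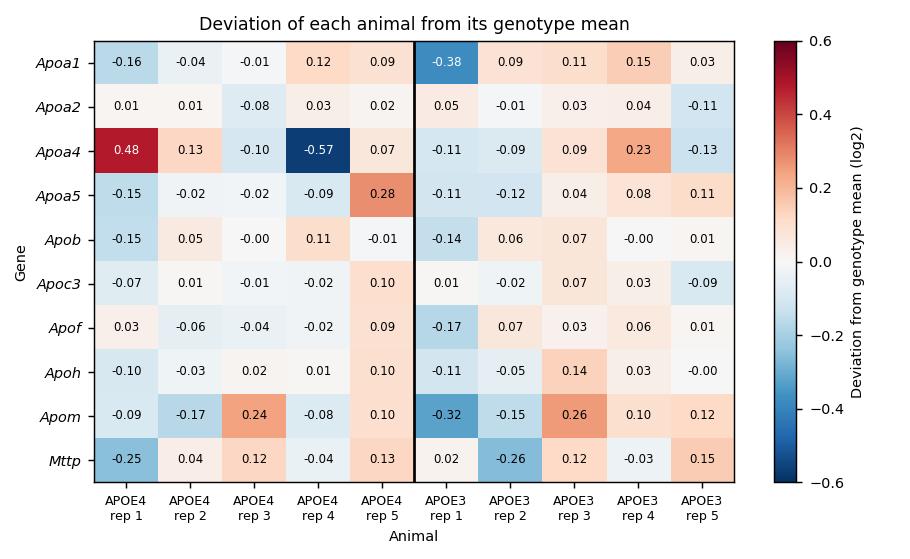
Deviation of each animal from its genotype mean (log2, colour and printed value) for the strongest probe set of each gene, APOE4 replicates left and APOE3 replicates right. APOE3 replicate 1 is 0.38 below its mean for Apoa1 and 0.32 below for Apom, and Apoa4 is 0.48 above in APOE4 replicate 1 and 0.57 below in APOE4 replicate 4.

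Apoa1, Apoc3, Apoa4 and Apoa5 are consecutive genes on chromosome 9, and were compared pair by pair after the genotype means were subtracted, together with Apob and Mttp. Of these 7 pairs 0 passed (adjusted exact permutation p at least 0.50 for r). Apoc3 and Apoa5 had the highest correlation, r = 0.55 and rho = 0.47 (exact permutation p = 0.13 and 0.20, n = 10, adjusted p = 0.50 and 0.72; r = 0.82 without replicate 5 of either genotype). With arrays centred on the median of their tested probe sets, this pair was at r = 0.61 (exact permutation p = 0.071, n = 10, adjusted p = 0.30). It was at r = 0.18 without APOE3 replicate 3 and APOE4 replicate 5, so it rests on which animals enter. Apoa1 and Apoa4 were at r = -0.17 and rho = -0.03 (exact permutation p = 0.54 and 0.95, n = 10, adjusted p = 0.82 and 0.95; r = -0.26 without replicate 1 of either genotype), and Apob with Mttp at r = 0.22 and rho = -0.05 (exact permutation p = 0.59 and 0.90, n = 10, adjusted p = 0.82 and 0.95; r = -0.45 without replicate 1 of either genotype). Values on one array share its RNA and normalization.

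Over all 45 pairs of the 10 genes 34 were positive, the median r was 0.26, and 0 passed (lowest adjusted exact permutation p 0.31 for r and 0.23 for rho). Among the 5 pairs with r over 0.7, Apoa1 with Apob was at 0.81 (rho = 0.53, exact permutation p = 0.015 and 0.14, n = 10) and fell to 0.16 without replicate 1 of either genotype, so it rests on those animals. Apoa1 with Apof was at 0.77 (rho = 0.53, exact permutation p = 0.072 and 0.14, n = 10) and Apoa1 with Apoh at 0.73 (rho = 0.76, exact permutation p = 0.038 and 0.021, n = 10), and without the same animals at 0.61 and 0.42. Apoh with Apom was at 0.81 (rho = 0.82, exact permutation p = 0.012 and 0.014, n = 10) and at 0.72 without APOE3 replicate 1 and APOE4 replicate 5. Apoa5 with Apoh was at 0.73 (rho = 0.77, exact permutation p = 0.021 and 0.020, n = 10) and at 0.79 without replicate 5 of either genotype. The smallest p for rho was that of Apoa5 with Mttp, at r = 0.68 and rho = 0.82 (exact permutation p = 0.052 and 0.0067, n = 10, adjusted p = 0.39 and 0.23). Its r was 0.68 without replicate 5 of either genotype.

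The genes most alike Apoa4 and Apom, the members with the widest spread by their strongest probe set, were sought among 8534 other tested genes by Pearson's r over the 10 arrays with genotype means subtracted. They were chosen as the highest, so no p is given. Apom was most alike Slc25a15, the mitochondrial ornithine carrier (r = 0.986, rho = 0.98), Cps1, carbamoyl phosphate synthetase of the mitochondrion (r = 0.982, rho = 0.95), and Cth, cystathionine gamma-lyase (r = 0.957, rho = 0.95). Without APOE3 replicate 1 and APOE4 replicate 3, these were r = 0.994, 0.961 and 0.930. Slc25a15 had 11.70, 11.56, 12.13, 11.76 and 11.99 log2 in APOE4 livers, against 11.47, 11.55, 12.19, 11.99 and 12.00 log2 in APOE3 livers, with replicate 3 the highest of both genotypes, as for Apom. Apoa4 was most alike Kdm5c, a histone demethylase gene (r = 0.934, rho = 0.89), H2-K1, a class I histocompatibility gene (r = 0.915, rho = 0.81), and Sumf2 (r = 0.907, rho = 0.82). These were r = 0.810, 0.800 and 0.841 without APOE4 replicates 1 and 4.

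**Figure D5:**
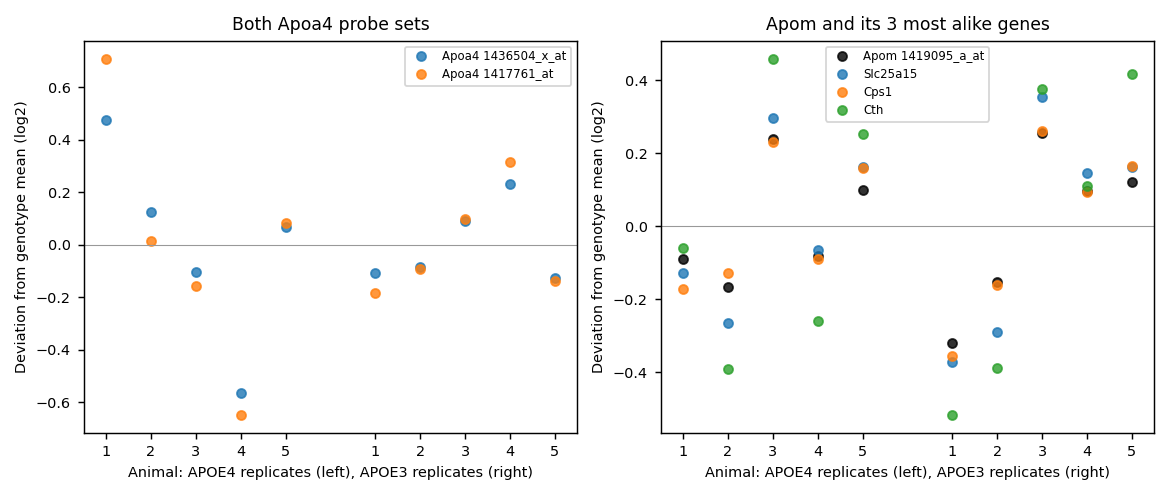
Deviation from the genotype mean (log2) by animal, APOE4 replicates left and APOE3 replicates right, for both probe sets of Apoa4 in the left panel and for Apom with Slc25a15, Cps1 and Cth in the right panel. The Apoa4 probe sets show like deviations (r = 0.98), and the Apom points track those of Slc25a15 and Cps1 (r = 0.986 and 0.982).

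Of the 20 partners of VLDL assembly and secretion, 18 were tested, 0 passed in either direction, 11 were positive and 7 negative, and the median difference was 0.01 beside 0.047 for all tested probe sets. Dgat2, which makes triglyceride, had the smallest p, with 10.57 ± 0.17 log2 in APOE4 and 10.29 ± 0.14 log2 in APOE3 livers (SD, n = 5 each), a difference of 0.27 (SE 0.11, adjusted p = 0.58 in limma). Tm6sf2, a regulator of VLDL lipidation, was at 0.39 (SE 0.18, adjusted p = 0.63) and Pla2g12b, needed for normal lipid loading of VLDL in the mouse, at 0.16 (SE 0.12, adjusted p = 0.76). P4hb, the partner of Mttp, was at 12.03 ± 0.10 log2 in APOE4 and 12.02 ± 0.098 log2 in APOE3 livers (SD, n = 5 each), a difference of 0.02 (SE 0.088).

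Of 9 further apolipoprotein genes 7 were tested, 0 passed, 2 were positive and 5 negative, with a median of -0.05. Apoc1, Apoc2 and Apoc4 lie beside Apoe, and their proteins modulate lipolysis and remnant uptake. Apoc1 was at 13.38 ± 0.053 log2 in APOE4 and 13.43 ± 0.081 log2 in APOE3 livers (SD, n = 5 each), a difference of -0.05 (SE 0.079). Apoc2, the cofactor of lipoprotein lipase, was at -0.12 (SE 0.14), Apoc4 at 0.07 (SE 0.078) and Clu, which encodes apolipoprotein J, at -0.06 (SE 0.078), with adjusted p from 0.85 to 0.90 in limma for these genes.

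Mouse liver edits Apob messenger RNA, giving the shorter form of the protein. Of the 4 genes of this editing, 3 were tested, 0 passed and 3 were positive, with a median of 0.14. Apobec1, the cytidine deaminase, was at 5.22 ± 0.41 log2 in APOE4 and 4.99 ± 0.29 log2 in APOE3 livers (SD, n = 5 each), a difference of 0.23 (SE 0.21, adjusted p = 0.80 in limma) that was 0.06 without APOE4 replicate 1. The RNA-binding proteins Syncrip and Rbm47 were at 0.14 (SE 0.13) and 0.06 (SE 0.16), and at 0.04 without APOE4 replicate 3 and -0.05 without APOE4 replicate 2. A1cf, the complementation factor, was at a background level of 2.45 ± 0.25 log2 in APOE4 and 2.42 ± 0.20 log2 in APOE3 livers (SD, n = 5 each) by its best probe set.

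Of 20 transcription factors and cofactors known to act on apolipoprotein genes, 18 were tested, 0 passed, 10 were positive and 8 negative, with a median of 0.03. Foxa1, a forkhead factor, had the smallest p, with 6.92 ± 0.27 log2 in APOE4 and 6.41 ± 0.27 log2 in APOE3 livers (SD, n = 5 each), a difference of 0.51 (SE 0.16, unadjusted p = 0.0089, adjusted p = 0.53 in limma). Hnf4a, the nuclear receptor central to hepatocyte identity, was at -0.22 (SE 0.14, adjusted p = 0.71) and the coactivator gene Ppargc1a at -0.40 (SE 0.30, adjusted p = 0.75). Without APOE4 replicate 1, which was at 5.86 log2 against 7.18 to 7.64 log2 in the other APOE4 livers, the difference of Ppargc1a was -0.10. Creb3l3, known to activate Apoa4 in mouse liver, was at -0.04 (SE 0.11).

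In APOE4 and APOE3 livers together, Creb3l3 did not follow Apoa4 (r = -0.15, rho = 0.09, exact permutation p = 0.72 and 0.82, n = 10, adjusted p = 0.78 and 0.95 over 12 such relations chosen after the members' values were seen, of which 0 passed). Without APOE4 replicates 1 and 4, the animals with the highest and lowest Apoa4, r was 0.93 over 8 animals (exact permutation p = 0.0083, not adjusted), so those animals decide the value. Apom and Ppara were at r = -0.68 (rho = -0.70, exact permutation p = 0.0052 and 0.014, n = 10, adjusted p = 0.063 and 0.17), and at r = -0.80 without APOE3 replicate 1 and APOE4 replicate 3.

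A further list held 13 genes for plasma lipases, their inhibitors, HDL enzymes and some linked membrane proteins. Of these 9 were tested, 0 passed, 5 were positive and 4 negative, with a median of 0.04. Angptl8, a feeding-induced inhibitor of lipoprotein lipase, was at 9.18 ± 0.90 log2 in APOE4 and 8.42 ± 0.59 log2 in APOE3 livers (SD, n = 5 each), a difference of 0.76 (SE 0.42, adjusted p = 0.68 in limma). APOE4 replicate 1 was at 10.70 log2 against 8.43 to 9.28 log2 in the other APOE4 livers, and without it the difference was 0.38. Lcat, the cholesterol-esterifying enzyme that Apoa1 activates, was at 0.17 (SE 0.11, adjusted p = 0.71) and S1pr1, a receptor for the sphingosine 1-phosphate that Apom carries, at 0.17 (SE 0.12, adjusted p = 0.73).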

How the data were processed

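Total liver RNA (2 ug) from each of 10 mice was labelled with biotin and hybridised to 1 array, per the labels. The deposited values are log2 expression per probe set. GCRMA (2.12.1) and R (2.7.1) are the tools that the submitters' processing notes list. GCRMA models nonspecific binding from each probe's bases, normalizes between arrays, leaves undetected transcripts on a low floor and can compress the brightest. Probe annotation gave 1 symbol to 34958 of 45101 probe sets, several to 932 and none to 9211.

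Groups came from the sample titles. Without the 64 control probe sets, those with a mean of at least 4 log2 over 10 arrays (14732) were fitted with limma 3.58.1 in R 4.3.3. The fit used lmFit and eBayes without trend, two-sided, genotype only, with Benjamini-Hochberg adjustment over all 14732 and a threshold of 0.05. Intervals are 95%. The procedure was tested on simulated data. Where the labels number replicates alike, the deviations neither established nor excluded a pairing of the animals, and the main fit used none. Correlations used genotype-centred values and exact permutation within genotypes. The number of arrays limits the precision (median SE 0.14 log2). Alternatives were other filters, eBayes settings, array weights, scalings, a floor, 1 probe set per gene, a replicate block and leaving out each animal. Figures used Python 3.11.15 and matplotlib 3.10.9.

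Every member is named with all its probe sets; from the other lists, the 3 genes with the smallest p, any that passed, and Apobec1, A1cf, P4hb, Tm6sf2, Dgat2, Hnf4a, Creb3l3, Apoc1, Apoc2 and Apoe; some items of that rule are not reported here. Members and lists were chosen with earlier results of these data known. Ppara was added after values were seen.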

Additional observations from a re-analysis of the deposited data

Results flagged for a closer look

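Within a genotype, 3 of the 36 groups of 5 values (18 probe sets in each genotype) held an animal whose gap to its nearest neighbour was over 0.71 of the group's range, which chance gives in about 5% of groups. Apoa1 by 1419232_a_at was at 14.13 log2 in APOE3 replicate 1, with the next APOE3 animal at 14.54. Apof was at 12.78 log2 in the same animal, with the next at 12.96. Apoa2 was at 14.06 log2 in APOE4 replicate 3, with the next APOE4 animal at 14.15.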

How the results depend on the processing

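In every refit (other filters, eBayes settings, array weights, scalings, the floor, 1 probe set per gene, the replicate block, each animal left out) 0 member probe sets passed, and 0 genes of the 5 other lists. The lowest adjusted p of a member among these limma fits was 0.56 (Apoa2). Signs near 0 did turn. Centring each array on the median of its tested probe sets took the median difference of all tested probe sets to -0.0099. It gave Apoa1 -0.029, -0.025, -0.043 and -0.046 (1419232_a_at, 1438840_x_at, 1455201_x_at, 1419233_x_at). Apoc3 was then at -0.027, Apom 1419096_at at -0.015 and Mttp 1419400_at at -0.012, with a member median of -0.020. Renewed quantile normalization gave Apoa1 1455201_x_at -0.0029 and 1419233_x_at -0.00043, and array weights gave the last -0.0072. With each animal left out, ranges that crossed 0 were -0.067 to 0.067, -0.024 to 0.067, -0.048 to 0.052 and -0.057 to 0.045 for the Apoa1 probe sets in that order, -0.14 to 0.12 and -0.21 to 0.13 for Apoa4, -0.052 to 0.020 for Apob, -0.028 to 0.10 for Apom 1419096_at and -0.021 to 0.11 for Mttp 1419400_at; the member median ran from 0.0087 to 0.077. Over all probe sets 12 passed, and 8 to 14 with an animal left out. With a filter at a mean of 6 (9648 tested) 5 passed, and 7 of the 12 had means from 4 to 6. With 1 probe set per gene (8535 tested) 7 passed. With the replicate number as a block, 11 passed and 0 members. Deviations of same-numbered animals correlated with r from -0.079 to 0.41, 2 of 5 best with their own number. This does not establish that the numbers pair the animals, and with 5 numbers it cannot exclude it.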
